A study of Arabidopsis thaliana with 24 samples.

Results

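The 9 genes described here encode transcription factors of Arabidopsis thaliana that act in responses to abscisic acid (ABA), the hormone that accumulates in drying leaves: ABF1, ABF2, ABF3, ABF4, ABI5, AREB3, GBF3, ABI3 and ABI4. They were chosen by their gene identifiers and not by their measured values, and they are 9 of the 27664 genes in the deposited tables. Of these 9 genes, 7 passed the filter on low counts, as did 18841 of all genes, and ABI3 and ABI4 were listed at 0 counts in all 24 libraries. Messenger RNA was sequenced from rosette leaves of 24-day-old plants moved to soil for 12 days after their first 12 days on plates. The 6 groups of 4 libraries were the grf6 grf8 mutant at 0 h, 2 h and 4 h of dehydration, and the wild type (WT) at 0 h, 2 h and 4 h of dehydration. Both mutated genes, GRF6 and GRF8, encode 14-3-3 proteins, adaptors that dock onto phosphorylated partners, and the labels do not name the mutant alleles. The labels do not say whether the 4 libraries of a group came from separate plants, so the p-values measure the spread between these libraries.

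When ABA binds its receptors, protein phosphatases release SnRK2 kinases, and these kinases phosphorylate the ABF and ABI5 proteins. The phosphorylated factors are basic leucine zipper (bZIP) proteins that bind the ABA-responsive element, whose core is ACGTG, in front of genes for dehydration tolerance. ABF2, ABF3 and ABF4 are best known from leaves under water shortage, ABI5, ABI3 and ABI4 are best known from seeds and germinating seedlings, and 14-3-3 proteins are known to bind phosphorylated ABF3.

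The median library held 18.5 M counts, and the range was 17.4 to 22.4 M. GRF6 transcript was lower in grf6 grf8 leaves than in WT leaves averaged over the 3 times, with a log2 fold change of -3.07 (SE 0.149, adjusted p = 1.68e-11), and GRF8 transcript was lower by a log2 fold change of -1.07 (SE 0.105, adjusted p = 7.81e-06). At single times the GRF8 difference passed at 0 h (adjusted p = 1.75e-05), but not at 2 h (log2 fold change -0.52, adjusted p = 1) or at 4 h (-0.89, adjusted p = 0.173). All 5 leaf photosynthesis markers were measured, at a summed 5660 to 56506 CPM (counts per 1 M counts of the library), whereas the 4 root markers reached at most 0.117 CPM together, with 1 of them at 0 in every library. All 5 photosynthesis markers fell at 4 h against 0 h, with a median log2 fold change of -1.89 in grf6 grf8 and -2.02 in WT. The 9 seed maturation markers summed to 0.570 to 13.1 CPM, with the storage protein genes CRA1 and CRC and the oleosin gene OLEO1 at 0 in every library, and of the 4 that were tested 3 rose and 1 fell at 4 h in both genotypes. The 6 floral markers summed to 1.08 to 19.4 CPM, the highest in replicate 1 of grf6 grf8 at 4 h, and of the 4 tested 2 rose at 4 h in grf6 grf8 and 1 in WT. Over all tested genes, 28.1% rose and 23.1% fell at 4 h against 0 h in grf6 grf8, and 27.8% rose and 22.2% fell in WT. The part of these marker changes in the results below was not tested. A cell division score, the mean log2 CPM of 11 genes such as B-type cyclins, was 0.711 to 2.18 in 5 libraries and -0.906 to 0.0884 in the other libraries. Those 5 libraries were replicate 1 of grf6 grf8 at 0 h, replicates 1 and 2 of grf6 grf8 at 4 h, replicate 4 of WT at 2 h and replicate 4 of WT at 4 h. Replicate 1 of grf6 grf8 at 0 h had the lowest CPM of its group in all 7 tested genes.

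The 300 bases in front of the annotated gene start are shown for the 4 genes whose transcripts rose most in dehydration, since ABF proteins themselves bind ACGTG. The bases are from the RefSeq genome of build TAIR10.1, read 5′ to 3′ on the strand of the gene, and capitals mark each match to ACGTG on either strand.
ABI5 (chr2:15207637-15207936, minus strand): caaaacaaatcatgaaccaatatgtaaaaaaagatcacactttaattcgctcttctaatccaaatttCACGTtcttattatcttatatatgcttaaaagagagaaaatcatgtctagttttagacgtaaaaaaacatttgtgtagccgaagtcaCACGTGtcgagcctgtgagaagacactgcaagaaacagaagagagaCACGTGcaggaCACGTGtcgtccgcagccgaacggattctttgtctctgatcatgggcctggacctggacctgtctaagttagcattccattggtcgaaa
GBF3 (chr2:18999880-19000179, plus strand): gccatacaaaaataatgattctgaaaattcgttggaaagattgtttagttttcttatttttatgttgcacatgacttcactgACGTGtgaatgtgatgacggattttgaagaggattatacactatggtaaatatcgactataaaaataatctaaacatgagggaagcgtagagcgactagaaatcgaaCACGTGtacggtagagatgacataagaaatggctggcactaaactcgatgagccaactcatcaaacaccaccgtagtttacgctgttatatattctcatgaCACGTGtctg
ABF3 (chr4:16295034-16295333, plus strand): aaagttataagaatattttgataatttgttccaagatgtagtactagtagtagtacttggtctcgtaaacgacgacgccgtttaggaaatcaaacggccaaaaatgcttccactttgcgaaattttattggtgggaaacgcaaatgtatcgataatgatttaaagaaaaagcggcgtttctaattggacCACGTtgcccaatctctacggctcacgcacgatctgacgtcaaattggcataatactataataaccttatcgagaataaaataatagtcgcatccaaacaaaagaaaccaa
ABF2 (chr1:17167925-17168224, minus strand): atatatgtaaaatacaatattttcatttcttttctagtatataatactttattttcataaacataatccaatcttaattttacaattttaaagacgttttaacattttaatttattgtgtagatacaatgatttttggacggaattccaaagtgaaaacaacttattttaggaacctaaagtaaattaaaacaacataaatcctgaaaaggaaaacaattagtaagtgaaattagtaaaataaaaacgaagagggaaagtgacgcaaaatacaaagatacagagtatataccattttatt
The ABI5 window held ACGTG at 4 separate places, 3 of them the palindrome CACGTG, which counts as a match on both strands. The GBF3 window held it at 3 places, 2 of them CACGTG. ABF1 had 2 places, ABF3 and ABF4 had 1 place each, and the windows of ABF2, AREB3, ABI3 and ABI4 had none. Among 27443 promoters of the same length, 25.6% held at least 1 place, 5.86% at least 2, 1.32% at least 3 and 0.306% at least 4, and CACGTG was in 7.09%. The CCGAC core of the cold and drought element was found in the window of ABF4 alone among the 9 genes, against 13.9% of all promoters, and the WRKY core TTGAC was found in ABF3 and ABF4, against 50.4%. A match is a description of the letters and not evidence of a binding site, and a window with no match says nothing about sites outside it.

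Before dehydration ABF3, ABF4 and ABF1 had the highest transcript levels of the 9 genes, and ABI5 was the lowest of the 7 that were detected. Levels of different genes are compared here in deposited FPKM, fragments scaled to transcript length and to library size. At 0 h ABF3 had 43.3 ± 8.45 FPKM in grf6 grf8 and 41.9 ± 7.15 FPKM in WT, and ABF4 had 42.2 ± 1.44 FPKM in grf6 grf8 and 43.2 ± 1.78 FPKM in WT (SD, n = 4 each, here and for all FPKM values). ABF1 followed at 32.0 ± 2.31 FPKM in grf6 grf8 and 35.9 ± 2.93 FPKM in WT. The library range of ABF3 overlapped with that of ABF4 and with that of ABF1 in both genotypes. In grf6 grf8 the overlap with ABF1 came from replicate 1, with 32.3 FPKM of ABF3 and 33.5 FPKM of ABF1. GBF3 came next with 17.7 ± 1.41 FPKM in grf6 grf8 and 18.5 ± 2.16 FPKM in WT, overlapping in both genotypes with AREB3 at 16.3 ± 1.25 FPKM in grf6 grf8 and 16.0 ± 1.48 FPKM in WT. ABF2 stood at 13.1 ± 1.73 FPKM in grf6 grf8 and 9.16 ± 1.06 FPKM in WT, and overlapped with AREB3 in grf6 grf8 but not in WT. ABI5 had only 1.06 ± 0.184 FPKM in grf6 grf8 and 0.821 ± 0.232 FPKM in WT.

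The order changed by 2 h and was then the same in both genotypes for the 5 highest genes: ABF3, ABF2, GBF3, ABF4 and ABF1. At 2 h ABF3 had 342 ± 29.2 FPKM in grf6 grf8 and 271 ± 40.3 FPKM in WT, and at 4 h 411 ± 73.3 FPKM in grf6 grf8 and 446 ± 82.0 FPKM in WT. ABF2, the next gene down, had 162 ± 25.2 FPKM at 4 h in grf6 grf8 and 146 ± 18.8 FPKM in WT, and no ABF2 library at 4 h reached the lowest ABF3 library of its genotype. Among these 5 genes, neighbours in the order did not overlap at 2 h or 4 h, except ABF2 and GBF3 in WT at 2 h (90.8 ± 20.8 and 78.1 ± 11.0 FPKM). ABI5 moved past AREB3 in mean level at 4 h, with 21.0 ± 12.8 FPKM in grf6 grf8 and 14.9 ± 14.4 FPKM in WT, but its libraries overlapped with those of ABF1 and AREB3 in both genotypes. In WT the mean rested on replicate 4, which has a high cell division score, with 36.6 FPKM of ABI5 and 14.8 FPKM of AREB3. The other 3 WT libraries at 4 h had 7.33, 7.24 and 8.54 FPKM of ABI5, each below the 8.85, 8.79 and 8.997 FPKM of AREB3 in the same library. In grf6 grf8 at 4 h ABI5 had 27.3 and 35.9 FPKM in replicates 1 and 2, the libraries of high score, and 12.4 and 8.55 FPKM in replicates 3 and 4, where AREB3 had 9.16 and 9.51 FPKM.

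**Figure D1:**
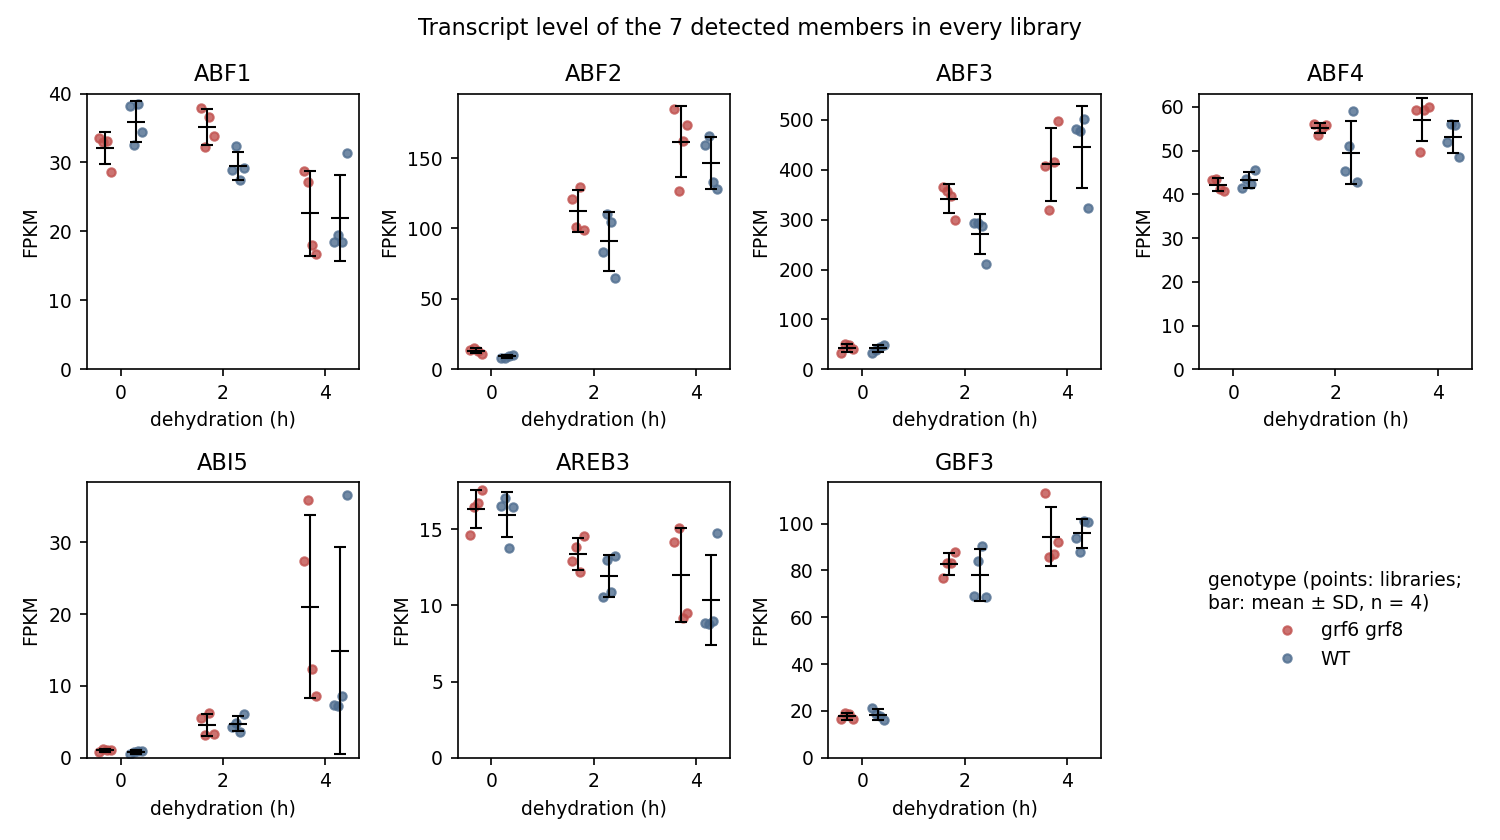
Transcript level in FPKM against hours of dehydration for the 7 detected genes, 1 panel per gene with its own axis from 0. Points are single libraries, and the bars give the mean ± SD of 4 libraries for grf6 grf8 (left of each pair) and WT. ABF2, ABF3 and GBF3 are far above their 0 h levels at 2 h and 4 h in both genotypes, ABI5 is most spread out at 4 h, and ABF1 and AREB3 are lowest at 4 h.

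Of the 7 tested genes, 5 rose and 0 fell after 2 h in grf6 grf8, against 23.2% and 20.3% of all tested genes, and 4 rose and 2 fell in WT, against 23.1% and 19.2%. After 4 h 5 rose and 2 fell in grf6 grf8, against 28.1% and 23.1% of all tested genes, and 4 rose and 2 fell in WT, against 27.8% and 22.2%. A gene was called where edgeR's quasi-likelihood test gave a Benjamini-Hochberg adjusted p under 0.05 over all 18841 tested genes. The median log2 fold change of the 7 genes was 2.14 at 2 h and 2.41 at 4 h in grf6 grf8, beside medians over all tested genes of 0.013 and 0.073. In WT it was 2.08 at 2 h and 2.43 at 4 h, beside 0.042 and 0.064 over all tested genes. ABF2, ABF3, GBF3 and ABI5 rose in both genotypes at both times, and ABF1 and AREB3 fell by 4 h in both genotypes. In this fit ABF4 passed the test in grf6 grf8 and not in WT, and its calls depended on the processing, as given below. Both genotypes' 2 h and 4 h comparisons use the same 0 h libraries of that genotype. Library ranges that do not overlap are given below gene by gene, and they were common. Among all tested genes, 49.6% did not overlap between 2 h and 0 h in grf6 grf8 and 42.4% in WT. Between 4 h and 0 h the share was 45.7% in grf6 grf8 and 41.5% in WT, and between 4 h and 2 h it was 16.6% in grf6 grf8 and 7.17% in WT.

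ABF2, also called AREB1, is one of the main ABA-activated factors of leaves and had the largest fold change of the ABF genes. The gene, AT1G45249, lies at chr1:17165125-17167924 on the minus strand. In CPM corrected for library composition (TMM scaling), the 0 h libraries of grf6 grf8 had 19.5, 24.8, 21.4 and 20.1, the 2 h libraries 199, 178, 218 and 168 and the 4 h libraries 274, 182, 285 and 340.2. The WT libraries had 13.0, 13.1, 16.7 and 16.7 CPM at 0 h, 144, 181, 179 and 90.5 CPM at 2 h and 291, 309, 239 and 164 CPM at 4 h. Every dehydrated library was above every 0 h library of its genotype, whereas the 4 h and 2 h libraries overlapped in both genotypes. The log2 fold change at 2 h was 3.15 (SE 0.235, adjusted p = 2.94e-09) in grf6 grf8 and 3.32 (SE 0.237, adjusted p = 1.53e-09) in WT, and that at 4 h was 3.66 (SE 0.240, adjusted p = 3.09e-10) in grf6 grf8, a 12.6-fold level, and 4.07 (SE 0.245, adjusted p = 8.65e-11) in WT, a 16.8-fold level.

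ABF3, which confers drought tolerance when it is overexpressed, was the most abundant of the 9 transcripts at 2 h and 4 h. The gene, AT4G34000, lies at chr4:16295334-16298285 on the plus strand. The 0 h libraries of grf6 grf8 had 51.6, 87.1, 89.0 and 78.8 CPM, the 2 h libraries 639.9, 673, 626 and 539 CPM and the 4 h libraries 644, 488, 775 and 1035 CPM. The WT libraries had 55.3, 67.2, 83.8 and 86.7 CPM at 0 h, 538, 512, 526 and 312 CPM at 2 h and 934, 945, 951 and 447 CPM at 4 h. All dehydrated libraries were above all 0 h libraries of their genotype, and the lowest WT library at both later times was replicate 4, the library with the high cell division score. ABF3 rose at 2 h by a log2 fold change of 3.01 (SE 0.276, adjusted p = 4.55e-08) in grf6 grf8 and 2.69 (SE 0.272, adjusted p = 1.57e-07) in WT, and at 4 h by 3.26 (SE 0.279, adjusted p = 8.93e-09) in grf6 grf8 and 3.48 (SE 0.282, adjusted p = 4.53e-09) in WT.

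GBF3 belongs to the G-box binding group of bZIP factors and is known as an ABA-induced gene. It is AT2G46270 and lies at chr2:19000180-19003403 on the plus strand. The 0 h libraries of grf6 grf8 had 28.2, 35.8, 36.8 and 34.7 CPM, the 2 h libraries 146, 169.6, 162 and 172 CPM and the 4 h libraries 193, 142, 176 and 209 CPM. In WT there were 38.1, 34.4, 35.7 and 30.5 CPM at 0 h, 138, 159, 179 and 111 CPM at 2 h and 198, 189, 209 and 149.6 CPM at 4 h. The 0 h libraries lay well below all others, and the 2 h and 4 h libraries of each genotype overlapped. GBF3 rose at 2 h by a log2 fold change of 2.26 (SE 0.155, adjusted p = 9.7e-10) in grf6 grf8 and 2.08 (SE 0.154, adjusted p = 2.56e-09) in WT, and at 4 h by 2.41 (SE 0.156, adjusted p = 2.44e-10) in grf6 grf8 and 2.43 (SE 0.156, adjusted p = 2.01e-10) in WT. The end of GBF3 shares 246 bases, 7.63% of the gene, with AT2G46280 on the other strand, and strand use in the counting is not given in the sources used here, so reads there cannot be told apart.

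ABI5, the factor that holds germinating seedlings back under ABA, started at the lowest level. With all libraries in the fit it was the gene with the largest further rise between 2 h and 4 h. It is AT2G36270 and lies at chr2:15204659-15207636 on the minus strand. The 0 h libraries of grf6 grf8 had 1.22, 2.00, 1.95 and 2.15 CPM, the 2 h libraries 9.49, 5.94, 11.0 and 5.80 CPM and the 4 h libraries 42.2, 53.7, 22.7 and 17.4 CPM. The WT libraries had 0.798, 1.39, 1.69 and 1.74 CPM at 0 h, 7.80, 8.34, 6.51 and 8.95 CPM at 2 h and 14.0, 14.0, 15.9 and 49.2 CPM at 4 h. The 3 times did not overlap within either genotype, and at 4 h the 3 highest libraries were grf6 grf8 replicates 1 and 2 and WT replicate 4, which are the 3 libraries of that time with a high cell division score. ABI5 rose at 2 h by a log2 fold change of 2.14 (SE 0.422, adjusted p = 0.000367) in grf6 grf8 and 2.50 (SE 0.432, adjusted p = 9.57e-05) in WT, and at 4 h by 4.21 (SE 0.447, adjusted p = 1.53e-07) in grf6 grf8 and 4.06 (SE 0.449, adjusted p = 2.95e-07) in WT. At 4 h against 2 h the log2 fold change was 2.08 (SE 0.398, adjusted p = 0.00218) in grf6 grf8 and 1.56 (SE 0.393, adjusted p = 0.0249) in WT.

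The rise of ABI5 at 4 h was also found without those libraries, at a smaller size. Without WT replicate 4 of 4 h, the log2 fold change in WT was 3.37 at 4 h against 0 h, and 0.86 with an adjusted p of 0.0633 at 4 h against 2 h. Leaving out WT 2 h replicate 1, 2 or 3 also ended the WT call at 4 h against 2 h, at log2 fold changes of 1.53, 1.58 and 1.48 and adjusted p of 0.0536, 0.0687 and 0.0537. With all 5 libraries of high score left out, the log2 fold change at 4 h against 0 h was 3.33 in grf6 grf8 and 3.38 in WT. At 4 h the same 3 libraries were above the others of their group in ABF1 and AREB3 as well, and below them in ABF2, ABF3 and ABF4. The part of cell division genes in these differences was not tested.

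**Figure D2:**
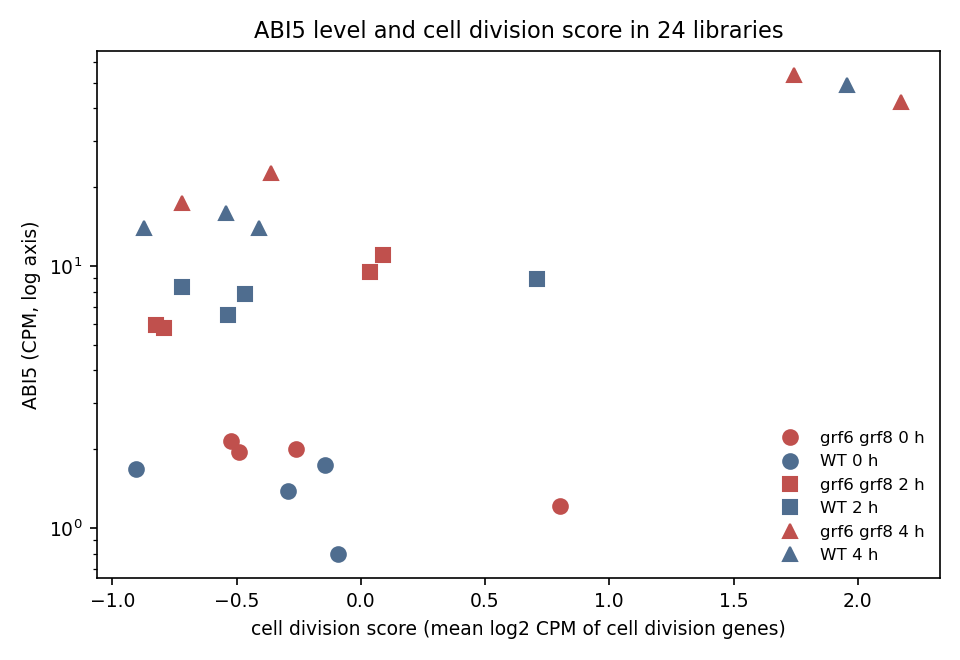
ABI5 in CPM on a log axis against the cell division score, the mean log2 CPM of 11 cell division genes, with 1 point for each of the 24 libraries. Colours give the genotype and shapes the hours of dehydration. The 3 libraries of 4 h with scores of 1.74 to 2.18 have 42.2 to 53.7 CPM, and the other 4 h libraries have 14.0 to 22.7 CPM.

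ABF4, also called AREB2, changed little although it was among the highest of these transcripts at 0 h. It is AT3G19290 and lies at chr3:6687042-6690123 on the plus strand. The grf6 grf8 libraries had 70.0, 76.5, 76.8 and 80.2 CPM at 0 h, 101, 103, 102 and 103 CPM at 2 h and 96.0, 78.0, 114 and 128 CPM at 4 h. The WT libraries had 70.5, 75.7, 79.7 and 81.7 CPM at 0 h, 85.5, 91.6, 111 and 65.1 CPM at 2 h and 104, 114, 109 and 68.5 CPM at 4 h. All grf6 grf8 libraries of 2 h lay above those of 0 h, while the other comparisons with 0 h overlapped, and the lowest WT library at 2 h and at 4 h was replicate 4. The log2 fold change at 2 h was 0.43 (SE 0.163, adjusted p = 0.0364) in grf6 grf8 and 0.20 (SE 0.163, adjusted p = 0.346) in WT, and at 4 h 0.45 (SE 0.163, adjusted p = 0.0247) in grf6 grf8 and 0.36 (SE 0.163, adjusted p = 0.0699) in WT. The call at 2 h in grf6 grf8 was lost when any 1 of its 8 libraries was left out, at adjusted p of 0.0603 to 0.0886, and also with the size factors of DESeq2 (0.0501) or with no filter (0.0696). The call at 4 h in grf6 grf8 was lost without any 1 of the 4 libraries of 0 h, or without replicate 3 or 4 of 4 h, at adjusted p of up to 0.154, with no filter (0.058), or with only its 2 groups in the fit (0.0579). The WT difference at 4 h passed the threshold without replicate 4 of 4 h (log2 fold change 0.49, adjusted p = 0.00599). Over all alternatives run, the lowest adjusted p of ABF4 in WT was 0.0101 at 2 h and 0.000105 at 4 h. The WT difference thus passed under some of them at both times. RefSeq places a long noncoding RNA, AT3G03815, on the other strand across 2516 bases or 81.6% of ABF4, and since that RNA is not among the identifiers of the files, reads from either strand cannot be told apart here.

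ABF1 is known mainly as a cold-induced member of its family, and its transcript was lower at 4 h than at 0 h in both genotypes. It is AT1G49720 and lies at chr1:18400003-18402628 on the plus strand. The grf6 grf8 libraries had 48.3, 51.6, 54.8 and 50.2 CPM at 0 h, 60.9, 55.4, 60.0 and 55.7 CPM at 2 h and 41.4, 38.0, 30.6 and 31.9 CPM at 4 h. The WT libraries had 57.8, 50.3, 64.5 and 55.1 CPM at 0 h, 48.5, 51.7, 45.8 and 39.6 CPM at 2 h and 32.9, 35.2, 32.2 and 39.4 CPM at 4 h. The 4 h libraries lay below all 0 h and 2 h libraries of their genotype, and at 2 h the grf6 grf8 libraries lay just above those of 0 h, whereas the WT libraries overlapped with those of 0 h. ABF1 fell at 4 h with a log2 fold change of -0.53 (SE 0.110, adjusted p = 0.000432) in grf6 grf8 and -0.71 (SE 0.111, adjusted p = 2.23e-05) in WT. At 2 h the log2 fold change was 0.18 (SE 0.110, adjusted p = 0.196) in grf6 grf8 and -0.30 (SE 0.110, adjusted p = 0.035) in WT. The WT call at 2 h was lost without WT 0 h replicate 1 or 3, or without WT 2 h replicate 3 or 4, at adjusted p of 0.0642 to 0.114, or with only its 2 groups in the fit (0.069). A long noncoding RNA, AT1G07587, and AT1G49730 overlap 620 and 123 bases of ABF1 on the other strand.

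AREB3, a bZIP relative that binds the same element and is known from maturing seeds, fell by less than 2-fold. It is AT3G56850 and lies at chr3:21046234-21048614 on the minus strand. The grf6 grf8 libraries had 22.7, 27.8, 29.8 and 33.2 CPM at 0 h, 22.3, 25.6, 21.5 and 25.8 CPM at 2 h and 22.0, 22.7, 16.8 and 19.5 CPM at 4 h. The WT libraries had 26.9, 28.4, 24.9 and 28.3 CPM at 0 h, 19.2, 22.4, 19.5 and 19.4 CPM at 2 h and 16.9, 17.1, 16.9 and 20.0 CPM at 4 h. Both dehydrated WT groups lay below all WT libraries of 0 h, while in grf6 grf8 the groups overlapped. At 4 h the log2 fold change was -0.48 (SE 0.119, adjusted p = 0.00189) in grf6 grf8 and -0.61 (SE 0.120, adjusted p = 0.000237) in WT. At 2 h it was -0.25 (SE 0.119, adjusted p = 0.0926) in grf6 grf8 and -0.43 (SE 0.119, adjusted p = 0.00602) in WT. The grf6 grf8 difference at 2 h passed when replicate 1 of 0 h was left out (-0.35, adjusted p = 0.0224).

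ABI3, a B3-domain factor of seed maturation, and ABI4, an AP2-domain factor of seedlings and seeds, had 0 counts in every library of both genotypes at every time. ABI3 (AT3G24650) lies at chr3:8997370-9001185 on the plus strand, and ABI4 (AT2G40220) at chr2:16796247-16797585 on the minus strand. A count of 0 allows up to 3 counts, which is 0.134 to 0.173 CPM across these libraries and covers counting error only. Of the 9 seed maturation markers 4 were tested, and at 4 h 3 rose and 1 fell in each genotype, all at low levels. The shares of all tested genes are given above. The sum of the 9 markers was highest, at 13.1 CPM, in WT replicate 4 of 4 h, where the seed storage albumin gene SESA1 had 9.66 CPM. The marker that fell was PAP85, which had the highest 0 h mean of the 9 in both genotypes. In grf6 grf8 its mean dropped from 2.27 CPM before dehydration to 0.245 CPM after 4 h. The WT mean dropped from 1.83 to 0.368 CPM over the same hours. EM6, a late embryogenesis abundant protein gene and known target of ABI3 and ABI5, averaged 0.740 CPM at 4 h in grf6 grf8, where all 4 libraries of 0 h were at 0, and 0.589 CPM at 4 h in WT, against 0.0265 CPM at 0 h in WT. EM1, its close relative, averaged 1.02 CPM at 4 h in grf6 grf8 and 0.747 CPM at 4 h in WT, and all 4 grf6 grf8 libraries and 3 of 4 WT libraries of 0 h were at 0. Both passed the test at 4 h in grf6 grf8 (adjusted p = 2.83e-05 for EM6 and 0.000202 for EM1) and in WT (0.000372 for EM6 and 0.00166 for EM1), whereas the oleosin genes OLEO2 and OLEO3 were too low to be tested.

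**Figure D3:**
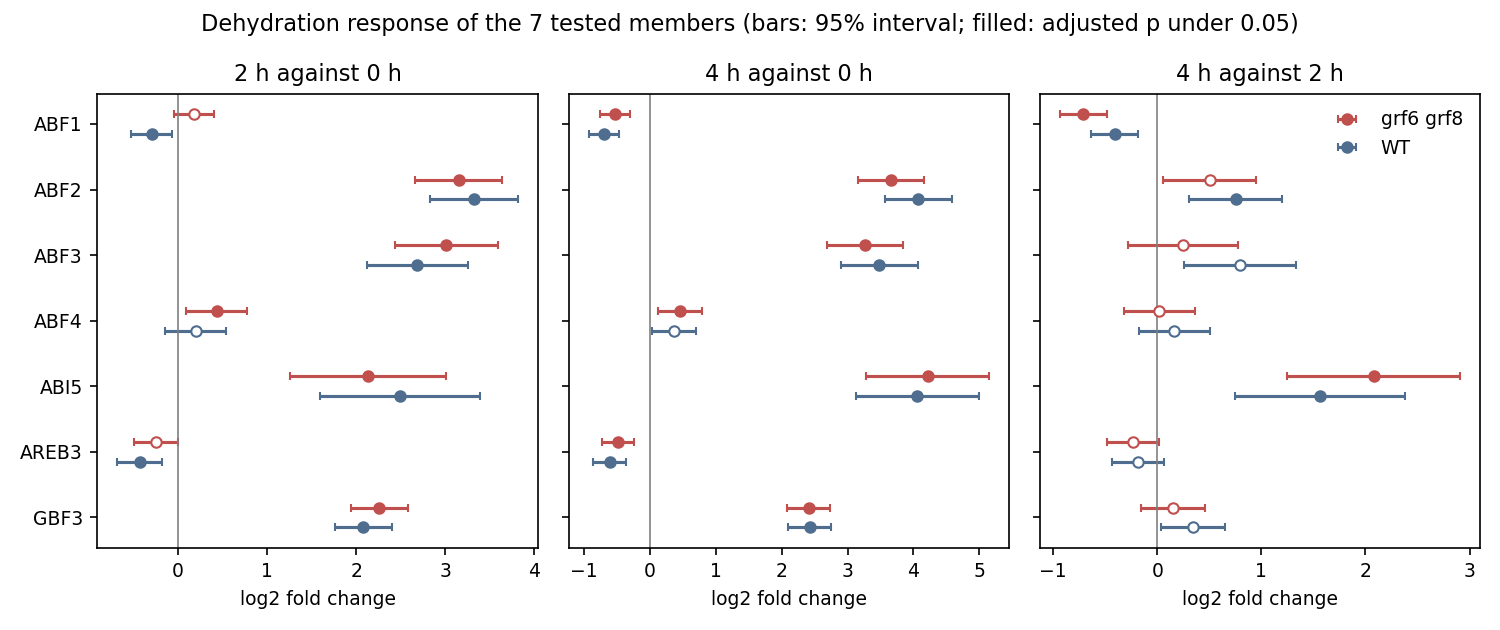
Log2 fold change of the 7 tested genes in 3 panels, 2 h and 4 h each against 0 h, then 4 h against 2 h, with grf6 grf8 above WT for each gene. Bars are 95% intervals of the fit, and filled points have an adjusted p under 0.05. ABF2, ABF3, ABI5 and GBF3 lie between 2.08 and 4.21 in both comparisons with 0 h, and ABI5 has the largest fold change between 2 h and 4 h. Without WT replicate 4 of 4 h, the WT value of ABI5 there is 0.86, below the 0.98 of ABF3.

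With all libraries in the fit, ABI5 had the smallest share of its 4 h log2 fold change in place at 2 h among the 4 strongly rising genes. The 2 h value was 93.9% of the 4 h log2 fold change for GBF3, 92.4% for ABF3 and 86.2% for ABF2 in grf6 grf8, and 85.8%, 77.2% and 81.5% for those genes in WT. For ABI5 it was 50.7% in grf6 grf8 and 61.5% in WT. Without WT replicate 4 of 4 h, the 4 h log2 fold change of ABI5 in WT was 3.37 in place of 4.06. At 4 h against 2 h ABI5 in WT then had 0.86, below the 0.98 of ABF3. The shares were not computed without that library, so the rank of ABI5 by share in WT rests on a fit that includes it. Between 4 h and 2 h, 1 of the 7 genes rose in grf6 grf8 (ABI5) and 1 fell (ABF1), against 6.34% and 5.79% of all tested genes. In WT 2 rose (ABF2 and ABI5) and 1 fell (ABF1), against 2.57% and 2.11%. The median log2 fold change of the 7 genes at 4 h against 2 h was 0.15 in grf6 grf8 and 0.34 in WT, beside 0.060 and 0.033 over all tested genes. Fitted with edgeR on the WT libraries of 2 h and 4 h alone, 0 of the 7 genes rose and 0 fell, and of all genes tested in that fit 0.109% rose and 0.103% fell.

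ABF2 at 4 h against 2 h had a log2 fold change of 0.50 (SE 0.216, adjusted p = 0.13) in grf6 grf8 and 0.75 (SE 0.217, adjusted p = 0.0491) in WT. The WT call was lost without WT 2 h replicate 1, 2 or 4, or without WT 4 h replicate 1, 2 or 3, at adjusted p of 0.0638 to 0.162, and ABF2 in grf6 grf8 passed without replicate 2 of 4 h (0.64, adjusted p = 0.0496). ABF1 fell between these times with -0.71 (SE 0.111, adjusted p = 0.000387) in grf6 grf8 and -0.41 (SE 0.110, adjusted p = 0.036) in WT, and its WT call was lost without WT 2 h replicate 1 or 2, or without WT 4 h replicate 1 or 3, at adjusted p of 0.0531 to 0.127. ABF3 had 0.25 (SE 0.256, adjusted p = 0.556) in grf6 grf8, with an interval of -0.28 to 0.78, and 0.80 (SE 0.257, adjusted p = 0.0765) in WT. Without WT 4 h replicate 4 the WT difference of ABF3 was 0.98 (adjusted p = 0.00693) and that of GBF3 was 0.41 (adjusted p = 0.0439), in place of 0.34 (SE 0.148, adjusted p = 0.19). When the 5 libraries of high cell division score were left out, 4 of the 7 genes rose between 2 h and 4 h in each genotype, and 2 fell in grf6 grf8 and 1 in WT. In that fit 3155 of all 18771 tested genes (16.8%) rose and 2706 (14.4%) fell in grf6 grf8, and 2123 (11.3%) rose and 1888 fell in WT, so calls were more frequent over all genes as well.

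The summed FPKM of the 7 detected genes was 166 ± 12.2 in grf6 grf8 and 165 ± 6.73 in WT at 0 h, 646 ± 37.0 in grf6 grf8 and 535 ± 70.9 in WT at 2 h, and 779.7 ± 89.6 in grf6 grf8 and 789 ± 70.0 in WT at 4 h. ABF3 made up 25.9% ± 3.49 of the sum at 0 h, 53.0% ± 2.25 at 2 h and 52.5% ± 4.64 at 4 h in grf6 grf8, and in WT 25.2% ± 3.39 at 0 h, 50.5% ± 2.91 at 2 h and 56.2% ± 5.95 at 4 h. ABF2 made up 7.93% ± 0.794, 17.4% ± 1.58 and 20.7% ± 1.26 at 0 h, 2 h and 4 h in grf6 grf8, and 5.52% ± 0.417, 16.8% ± 1.83 and 18.6% ± 1.77 in WT. The shares of the genes that rose little or fell shrank as the sum grew. ABF4 had 25.5% ± 1.88 at 0 h and 7.34% ± 0.372 at 4 h in grf6 grf8, and 26.1% ± 0.854 at 0 h and 6.75% ± 0.321 at 4 h in WT. ABF1 had 19.4% ± 1.62 at 0 h and 2.96% ± 0.993 at 4 h in grf6 grf8, and 21.7% ± 1.98 at 0 h and 2.86% ± 1.15 at 4 h in WT. The shares describe transcripts only, and the bars of the make-up plot show them for all 7 genes.

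**Figure D4:**
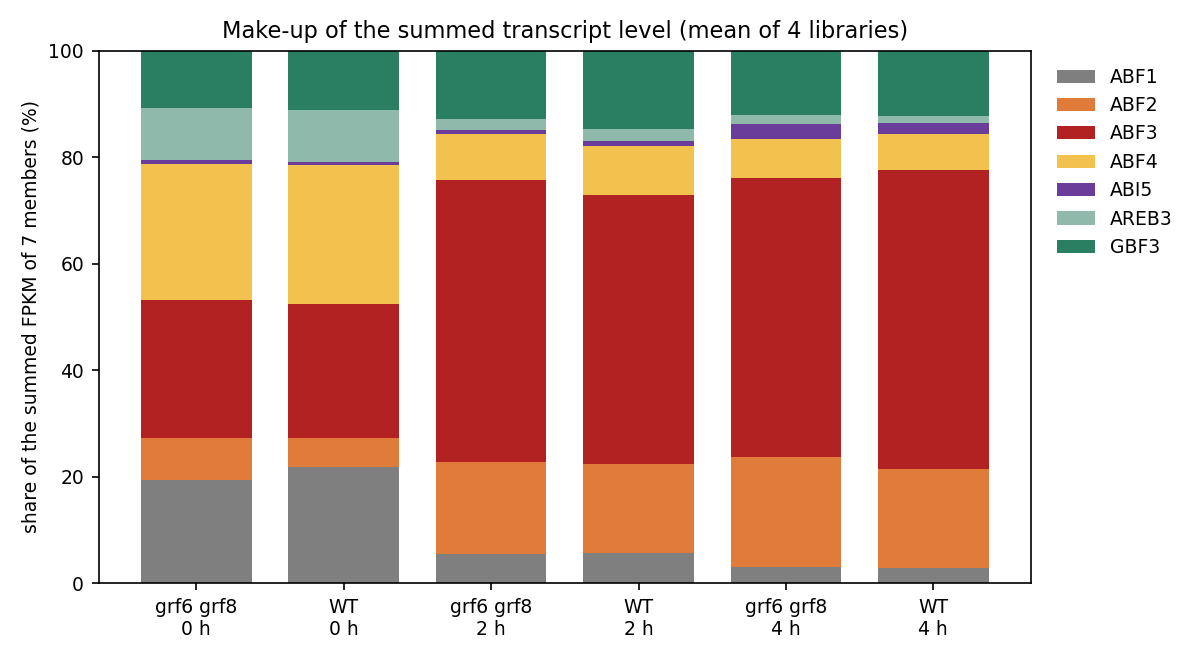
Share of the summed FPKM of the 7 detected genes that each gene contributes, in percent, as the mean of 4 libraries in each group, with grf6 grf8 left of WT at each time. ABF3 takes 25.9% of the grf6 grf8 bar and 25.2% of the WT bar at 0 h, and 50.5% to 56.2% of the bars at 2 h and 4 h, while ABF1, ABF4 and AREB3 shrink.

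None of the 7 genes passed the test between grf6 grf8 and WT at any time. The share of all tested genes that passed in either direction was 0.0265% at 0 h, 0.0212% at 2 h and 0.0159% at 4 h. The 21 differences ran from -0.16 to 0.54 on the log2 scale, 16 of them were above 0, all had an adjusted p of 1, and 2 had an unadjusted p under 0.05. The DESeq2 Wald test called 0 of the 7 genes in these comparisons as well. Their 95% intervals reached from -0.78 at the lowest to 1.34 at the highest, and include differences of up to that size. Averaged over the 3 times, all 7 differences were above 0, from 0.021 for GBF3 to 0.33 for ABF2, and none passed, against 0.0849% of all tested genes. The 7 genes share their libraries, so their directions are not independent of each other.

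ABF2 was the gene with the largest averaged difference, 0.33 with an SE of 0.125 and an interval of 0.069 to 0.59 (unadjusted p = 0.0155, adjusted p = 0.955). At 0 h all 4 grf6 grf8 libraries, given above, exceeded all 4 WT libraries, with a log2 difference of 0.53 (SE 0.221, unadjusted p = 0.0265, adjusted p = 1). ABF1 and ABF3 were likewise higher in every grf6 grf8 library than in every WT library at 2 h, with log2 differences of 0.32 (unadjusted p = 0.00797, adjusted p = 1) and 0.39 (unadjusted p = 0.14, adjusted p = 1). Among all tested genes, 3.38% had groups that did not overlap at 0 h, 3% at 2 h and 1.59% at 4 h. AREB3 averaged 0.17 (SE 0.0688, unadjusted p = 0.0247, adjusted p = 1). The widest interval was that of ABI5, whose difference at 4 h was 0.54 with an interval of -0.25 to 1.34, and without WT replicate 4 of 4 h this difference was 1.22 (adjusted p = 0.25).

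Whether the dehydration response itself differed between genotypes was tested as an interaction, in which 0 of the 7 genes passed at 2 h or at 4 h, against 0.00531% of all tested genes at each time. The unadjusted p of ABF1 at 2 h was 0.00602, for a difference between the 2 responses of 0.47 (SE 0.155, interval 0.15 to 0.80, adjusted p = 1), and it was the 1 unadjusted p under 0.05 among these 14 interaction tests. The threshold calls of ABF1, ABF4 and AREB3 at 2 h in 1 genotype and not in the other are therefore not shown to differ between genotypes. For ABF4 at 2 h the interaction was 0.24 with an interval of -0.24 to 0.71, and for AREB3 it was 0.18 with an interval of -0.17 to 0.53. For ABF2, ABF3, ABI5 and GBF3 the 4 h interactions were -0.42, -0.22, 0.16 and -0.015, and the interval of ABI5 was the widest, at -1.07 to 1.38.

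**Figure D5:**
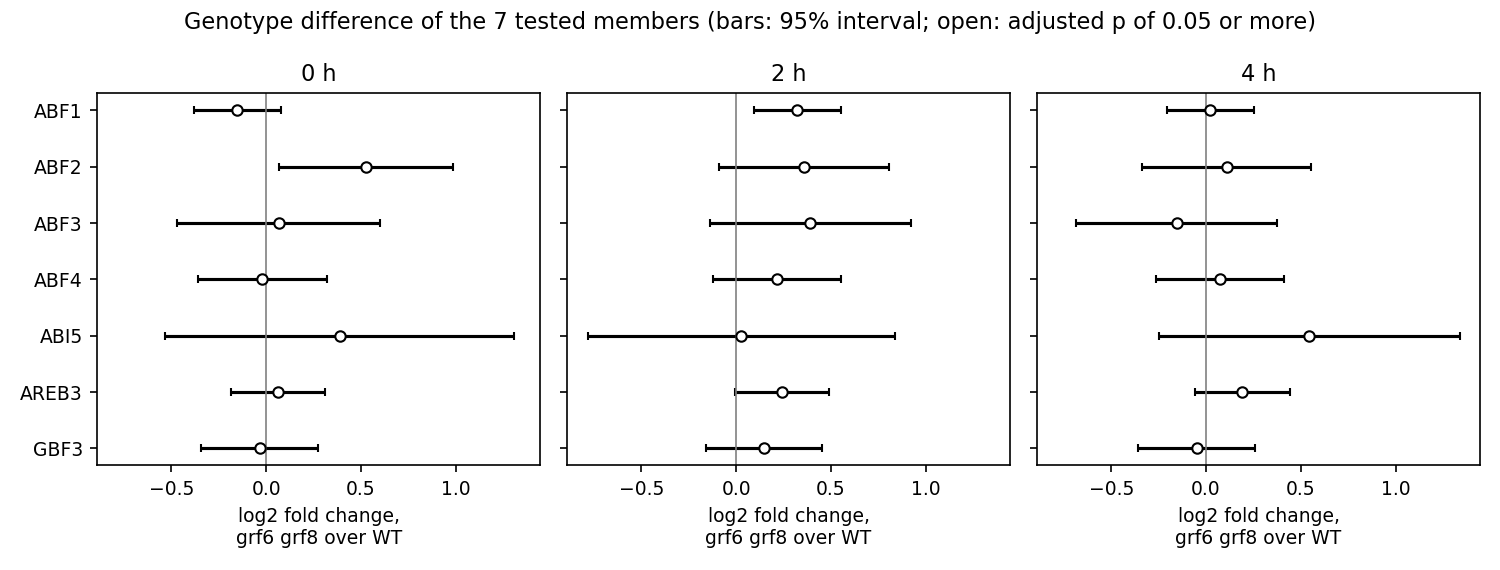
Log2 fold change of grf6 grf8 over WT for the 7 tested genes at 0 h, 2 h and 4 h, with 95% intervals. All points are open, since no adjusted p was under 0.05. They lie between -0.16 and 0.54, and the intervals of ABI5 are the widest at each time.

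A list of 15 ABA-responsive genes whose promoters are known for elements that ABF proteins bind was chosen with earlier results of these data known. At 2 h 14 of them rose and 1 fell in both genotypes, against 23.2% and 20.3% of all tested genes in grf6 grf8 and 23.1% and 19.2% in WT. At 4 h 14 rose and 0 fell in grf6 grf8, against 28.1% and 23.1% of all tested genes. In WT 14 rose and 1 fell at 4 h, against 27.8% and 22.2%. The median log2 fold change of the 15 genes at 4 h was 5.06 in grf6 grf8 and 5.33 in WT. At 4 h ABI2, a PP2C phosphatase gene of ABA signalling, rose by 4.74 (SE 0.215, adjusted p = 2.82e-12) in grf6 grf8 and 5.43 (SE 0.223, adjusted p = 1.04e-12) in WT. RD20, a caleosin gene of drying leaves, rose by 6.79 (SE 0.359, adjusted p = 1.43e-11) in grf6 grf8 and 6.74 (SE 0.358, adjusted p = 1.59e-11) in WT. LEA4-5, a gene for a protective late embryogenesis abundant protein, rose by 9.71 (SE 0.567, adjusted p = 6e-11) in grf6 grf8 and 10.25 (SE 0.599, adjusted p = 6.25e-11) in WT, and HB7, a homeodomain factor, by 4.04 (SE 0.257, adjusted p = 1.91e-10) in grf6 grf8 and 4.21 (SE 0.259, adjusted p = 1.14e-10) in WT. HIS1-3, a linker histone gene named here after its values were seen, was the gene that fell, with -2.28 in grf6 grf8 and -1.96 in WT at 2 h, and at 4 h -0.93 (SE 0.410, adjusted p = 0.0637) in grf6 grf8 and -1.27 (SE 0.417, adjusted p = 0.0152) in WT. ACGTG was found in the windows of 10 of these 15 genes and of 5 of the 9 transcription factor genes, against 25.6% of all promoters. The 15 genes were listed for elements with that core, so their excess over all promoters follows from the choice of the list.

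Among 11 genes for proteins that bind or degrade ABI5 and ABF proteins, 7 rose and 1 fell at 4 h in grf6 grf8, and 6 rose and 1 fell in WT, beside the same 28.1% and 23.1% of all tested genes in grf6 grf8 and 27.8% and 22.2% in WT. Their median log2 fold change was 0.81 in grf6 grf8 and 0.60 in WT. The 4 with the smallest adjusted p encode ABI5-binding proteins, which are known to hold ABI5 activity down. At 4 h AFP1 rose by 4.68 (SE 0.327, adjusted p = 6.42e-10) in grf6 grf8 and 4.99 (SE 0.332, adjusted p = 3.3e-10) in WT, and AFP4 by 4.80 (SE 0.416, adjusted p = 1.04e-08) in grf6 grf8 and 5.15 (SE 0.423, adjusted p = 5.42e-09) in WT. AFP2 rose by 2.18 in grf6 grf8 and 2.64 in WT, and AFP3 by 1.82 in grf6 grf8 and 2.26 in WT. The other genes of this list are named here after their values were seen. RPN10, a ubiquitin receptor of the proteasome, rose by 0.81 (adjusted p = 0.000329) in grf6 grf8 and 0.89 (adjusted p = 0.000127) in WT. DWA1, DWA2 and ABD1 belong to ubiquitin ligases that mark ABI5. DWA2 rose by 0.56 (adjusted p = 0.0353) in grf6 grf8 and 0.60 (adjusted p = 0.0269) in WT, and ABD1 had 1.07 (adjusted p = 0.0116) in grf6 grf8 and 0.33 (adjusted p = 0.429) in WT. DWA1 fell with -0.63 (SE 0.158, adjusted p = 0.00217) in grf6 grf8 and -0.38 (SE 0.158, adjusted p = 0.0478) in WT. KEG, the ubiquitin ligase best known for degrading ABI5 in the absence of ABA, had -0.32 (adjusted p = 0.107) in grf6 grf8 and -0.16 (adjusted p = 0.43) in WT, and CUL4 and SIZ1 did not pass in either genotype.

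Of 6 kinase genes, 1 rose and 1 fell at 4 h in grf6 grf8, and 2 rose and 2 fell in WT, with medians of 0.034 in grf6 grf8 and 0.0099 in WT. These counts are near the shares of all tested genes given above. SnRK2.6, the kinase of guard cells also called OST1, rose at 4 h by 0.94 (SE 0.161, adjusted p = 5.41e-05) in grf6 grf8 and 0.94 (SE 0.162, adjusted p = 5.93e-05) in WT. SnRK2.2, a kinase of the same subgroup, fell with -0.65 (SE 0.114, adjusted p = 7.86e-05) in grf6 grf8 and -0.56 (SE 0.114, adjusted p = 0.000357) in WT. Their sister gene SnRK2.3 had -0.30 (SE 0.134, adjusted p = 0.0671) in grf6 grf8 and -0.70 (SE 0.134, adjusted p = 0.000195) in WT. The calcium-dependent kinase gene CPK11 had -0.54 (SE 0.230, adjusted p = 0.054) in grf6 grf8 and -0.0061 (SE 0.229, adjusted p = 0.985) in WT at 4 h.

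Of 6 genes for factors known to bind ABF or ABI promoters, 1 rose and 1 fell at 4 h in grf6 grf8, and 2 rose and 1 fell in WT, with medians of 0.29 in grf6 grf8 and 0.95 in WT, also near those shares. HY5, which is known to bind the ABI5 promoter, rose by 1.93 (SE 0.339, adjusted p = 7.55e-05) in grf6 grf8 and 2.07 (SE 0.341, adjusted p = 3.86e-05) in WT. RAV1, a repressor of ABI genes, fell with -1.55 (SE 0.162, adjusted p = 1.3e-07) in grf6 grf8 and -0.91 (SE 0.159, adjusted p = 7.25e-05) in WT. Of the other bZIP factors of group A, 4 of 7 were tested. EEL, a partner and competitor of ABI5 in seeds, rose by 1.91 (SE 0.232, adjusted p = 9.18e-07) in grf6 grf8 and 1.18 (SE 0.228, adjusted p = 0.000216) in WT, while bZIP13 fell with -0.47 (SE 0.124, adjusted p = 0.00316) in grf6 grf8 and -0.51 (SE 0.124, adjusted p = 0.00182) in WT. Of the 4 other bZIP factors of group G, bZIP16 rose by 0.62 (SE 0.136, adjusted p = 0.000734) in grf6 grf8 and 0.61 (SE 0.136, adjusted p = 0.000811) in WT, and GBF2 had 0.53 (SE 0.259, adjusted p = 0.0936) in grf6 grf8 and 1.00 (SE 0.261, adjusted p = 0.00309) in WT. The 3 tested B3 factors of the ABI3 family, VAL1, VAL2 and VAL3, which repress the seed programme, did not pass at 4 h in either genotype, with log2 fold changes of -0.28, 0.17 and 0.62 in grf6 grf8 and -0.24, -0.10 and 0.71 in WT. None of the genes in these 7 lists passed between grf6 grf8 and WT at any time.

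Across the 24 libraries the log2 CPM values of ABF2, ABF3 and GBF3 followed each other most closely, with a Pearson r of 0.989 for ABF2 and ABF3, 0.986 for ABF3 and GBF3 and 0.985 for ABF2 and GBF3. These values describe 6 groups at 3 times, and libraries of a time share most of what moves them. ABI5 had an r of 0.879 with ABF2 and 0.850 with ABF3, and ABF4 had 0.721 with ABF2. ABF1 and AREB3 followed each other with 0.732 and ran against the 4 rising genes, from -0.537 for ABF1 and GBF3 to -0.772 for AREB3 and ABF2.

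Among 12262 tested genes with at least 10 CPM in 1 group, those most like ABF2 by Pearson r over the 24 libraries were HB-7 (0.994), ABI2 (0.993) and AFP1 (0.991). For ABF3 they were HAB1 (0.996), a PP2C phosphatase gene, ECT8 (0.995) and AT1G79520 (0.993), and for GBF3 they were AFP1 (0.994), HAI1 (0.993), another PP2C gene, and HB-7 (0.993). ABI5 was most like AT5G03190 (0.970), FMO GS-OX2 (0.962) and A/N-InvB (0.959). Those nearest to ABF4 were ZAC (0.962), UFD1 (0.959) and YKT61 (0.947), and to ABF1 the assembled locus MSTRG.2696 (0.910), SCL14 (0.907) and RRP45a (0.903). AREB3 was nearest to AT5G10060 (0.909), AT4G17150 (0.906) and AT3G11290 (0.901). By Spearman's rank correlation the top 3 kept 1 of these genes for ABF4, ABI5 and AREB3 and none for ABF1, ABF2, ABF3 and GBF3, so the order among such close values depended on the measure.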

How the data were processed

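Rosette leaf RNA of 24 libraries was analysed. The deposited files give expected counts per gene, estimated by the authors and already whole numbers, and FPKM as the authors computed them, per the file headers. The genome build TAIR10 and the programs RSEM, StringTie 1.3.1, HISAT2, Bowtie2 2.2.8, fastp 0.18.0, edgeR and DESeq2 are listed in the submitters' processing notes, without their roles. Library totals, 17.4 to 22.4 M counts, set the precision of low genes. Gene positions and promoters were taken from RefSeq build TAIR10.1.

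Counts were filtered with filterByExpr, scaled by TMM and fitted in edgeR 4.0.16 (limma 3.58.1, R 4.3.3) with 1 mean for each of the 6 groups of 4 libraries. Quasi-likelihood tests were two-sided, with Benjamini-Hochberg adjustment over 18841 genes and calls at adjusted p under 0.05. Intervals cover 95%. Levels between genes were compared in FPKM, which is not TMM-scaled, and their order in TMM-scaled CPM was an alternative. Log2 CPM used a prior count of 2. A high cell division score was over 1 above the median score. Named were all 9 genes, up to 4 genes of each list with the smallest adjusted p, the 3 genes most like each tested gene, GRF6 and GRF8. The genes, lists and tests were chosen with earlier results of these data known. Alternatives were the size factors of DESeq2 1.42.0, its Wald test, other filters, a replicate block, fits of the compared groups alone, leaving out each library in turn, and a 2-fold minimum. Leaving out the 5 libraries of high score and using the score as a covariate were chosen after seeing the data. The scripts were tested on simulated data.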

Additional observations from a re-analysis of the deposited data

Results flagged for a closer look

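In 42 groups of 4 libraries (7 genes in 6 groups), 5 held a library whose distance from its nearest neighbour took up nearly the whole range of the group on the log2 CPM scale. Chance marks about 1 in 20 such groups. In WT, ABF3 was low in replicate 4 at 2 h (log2 CPM 8.29) and in replicate 4 at 4 h (8.81). In that 4 h library ABI5 (5.62) and AREB3 (4.33) were high. AREB3 was high in replicate 2 of WT at 2 h (4.49). The 2 libraries numbered replicate 4 have high cell division scores, 0.711 at 2 h and 1.96 at 4 h, and WT 2 h replicate 2 does not, with -0.720.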

How the results depend on the processing

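The calls of ABF2, ABF3, ABI5 and GBF3 at 2 h and at 4 h against 0 h, in both genotypes, kept their direction and passed under all alternatives run, and 0 of the 7 genes passed between genotypes or in an interaction under any of them. The cause of the changes below was not tested. Without 1 library, the rising count against 0 h in grf6 grf8 was 4 at 2 h in place of 5, and 4 to 5 at 4 h. The WT count was then 4 at 2 h and 4 to 5 at 4 h. Alternatives other than leaving out 1 library also added ABF4 to the rising WT genes, with a lowest adjusted p of 0.0101 at 2 h and 0.000105 at 4 h. In WT at 4 h against 2 h, the count of genes that rose, 2, was 1 with the size factors of DESeq2, 1 with no filter, 1 with a 2-fold minimum, 0 with only the groups compared, 4 without the 5 libraries of high cell division score and 4 with that score as a covariate, and leaving out 1 library gave 0 to 3. Of all tested genes, 2.57% rose there in the main fit. The share was 2.49% with the size factors, 1.52% with no filter, 1.38% with a 2-fold minimum and 0.109% with only the groups compared. It was 11.3% without the 5 libraries and 9.96% with the covariate. The count that fell there, 1, was 0 with only the groups compared and with a 2-fold minimum, and 0 to 1 without 1 library. Of all tested genes, 2.11% fell there in the main fit, 0.103% with only the groups compared and 0.796% with a 2-fold minimum. In grf6 grf8 at 4 h against 2 h, the rising count was 4 without the 5 libraries, 3 with the covariate and 1 to 2 without 1 library, and the falling count was 2 without the 5 libraries and 0 with a 2-fold minimum. Over all tested genes the rising share was 6.34% in the main fit, 16.8% without the 5 libraries and 16.6% with the covariate. The falling share was 5.79% in the main fit, 14.4% without the 5 libraries and 1.82% with a 2-fold minimum. The falling count in WT at 2 h was 1 with only the groups compared, 0 with a 2-fold minimum and 1 to 2 without 1 library. Of all tested genes, 19.2% fell there in the main fit, 21.6% with only the groups compared and 9.01% with a 2-fold minimum. The falling count in grf6 grf8 at 2 h was 1 without the 5 libraries and 0 to 1 without 1 library, and a 2-fold minimum made the falling counts at 4 h 0 in both genotypes. Of all tested genes, 20.3% fell at 2 h in grf6 grf8 in the main fit and 27.2% without the 5 libraries. With a 2-fold minimum, 12.1% fell at 4 h against 0 h in grf6 grf8 and 11.3% in WT. Leaving out 1 library turned the sign of small differences: at 4 h against 2 h in grf6 grf8, ABF3 ranged from -0.0027 to 0.39 and ABF4 from -0.14 to 0.12, and GBF3 averaged over times ranged from -0.024 to 0.057 between genotypes. With the replicate block, 0 of the 7 genes rose and 0 fell in WT at 4 h against 2 h, with adjusted p of 0.0527 for ABI5, 0.0619 for ABF1 and 0.0653 for ABF2, and no other call on the 9 genes changed. Of all tested genes, 2.1% rose and 1.62% fell in WT at 4 h against 2 h with the block. The labels do not say whether libraries of the same replicate number are paired, and the correlations cannot settle it. Correlations of deviations in 60 same-numbered pairs ran from -0.783 to 0.628 with a median of 0.044, and 21 were over 0.1. Of 24 libraries, 6 correlated best with their own number. Depth limits ABI3 and ABI4 to under 0.173 CPM.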
